A study of Mus musculus with 6 samples.

Results

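The enzymes that build and cap N-glycans and O-glycans in the Golgi apparatus, with those that make and carry sialic acid, were examined in mouse Neuro2a (N2a) neuroblastoma cells with and without nemo-like kinase (Nlk). The 60 genes were a fixed list of symbols looked up in the deposited expression table, and the lookup used no difference between the genotypes. The list itself was chosen with earlier results of these data known, so its shares of called genes are descriptive. They fell in 59 of the 26657 loci of the table, because St6galnac4 and St6galnac6 share 1 locus. RNA-Seq was done on 3 WT and 3 Nlk-KO libraries of the same line, which the labels call biological replicates. Nlk-KO cells carried mutations made with a Cas9 nickase and paired guides against Nlk, and WT cells were the isogenic controls. N2a cells are polyploid, so the clones had been chosen by residual Nlk protein. Those used as Nlk-KO had no detectable Nlk protein, according to the paper. Several Nlk-KO clones were made, but the 3 libraries are not assigned to clones. P-values therefore cover only library-to-library spread, part or all of which may be technical.

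Proteins that enter the secretory pathway receive a mannose-rich N-glycan in the endoplasmic reticulum. In the Golgi, mannosidases trim it, N-acetylglucosaminyltransferases add branches, galactosyltransferases extend the branches, and sialyltransferases cap them. O-glycans are built from scratch in the Golgi, starting with a GalNAc residue on serine or threonine. Neural cells are known for sialylated glycolipids, the gangliosides, and for polysialic acid on the adhesion molecule Ncam1. Proteins of the lysosomal membrane, the organelle that the study examined in these cells, carry dense N-glycans and O-glycans.

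Expression was given as FPKM, fragments scaled to transcript length and library size, so levels can be set side by side between genes. Total reads are not known, and the relative depth read from the lowest values ran from 0.975 to 1.29 times that of WT replicate 1. Differences are given as log2 fold changes, Nlk-KO minus WT, of log2(FPKM + 0.1), which understates the change of low genes. Nlk had 15.8, 16.6 and 16.1 FPKM in the WT libraries and 6.78, 7.01 and 6.83 FPKM in the Nlk-KO libraries (log2 fold change −1.22, SE 0.037, adjusted p = 1.36e-06). All 14 markers of sympathetic neuroblasts had a mean of at least 1 FPKM. Their summed level was 1972 to 2045 FPKM in WT and 1737 to 1757 FPKM in Nlk-KO libraries, with 1 marker higher and 6 lower, Th and Dbh among the latter. Of 10 fibroblast markers, 6 were under 0.1 FPKM, the 3 collagens among them, and Fap was at 0 in each library. Both that were tested, Fbln1 and Pdgfra, were higher, and the summed level of the list was 137 to 154 FPKM in WT and 200.5 to 213 FPKM in Nlk-KO libraries. Nearly all of that sum was Fbln1, with 152, 152 and 135 FPKM in WT and 205, 198 and 211 FPKM in Nlk-KO libraries. Of 18 markers of other cell types, 11 were under 0.1 FPKM, and Myog was at 0 in each library. The locus of Cd68 is merged with Eif4a1 and Senp3 and cannot be read as a macrophage level, and without it the list summed to 35.9 to 41.0 FPKM in WT and 32.4 to 49.4 FPKM in Nlk-KO libraries. The part of these shifts in the results below was not tested.

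Transcripts of Golgi glycan enzymes were more often higher than lower in Nlk-KO cells. Of the 60 genes, 44 had a mean of at least 0.5 FPKM and were tested, and 16 were below that filter, 13 of them under 0.05 FPKM. With limma's moderated test and Benjamini-Hochberg adjustment over all 12667 loci tested, 22 of the 44 passed the threshold of 0.05 as higher and 2 as lower. By locus, 21 of the 43 tested were higher. Over all loci, 37.1% were called, 18.6% higher and 18.5% lower, against 50% and 4.55% of the glycan enzymes tested. The calls do not rest on 1 chromosome, since the 22 higher genes lay on 16 chromosomes. The changes were small: the log2 fold changes of the 22 had a median of 0.29, 9 of them were under 1.2-fold, and only Gcnt1 passed 2-fold. The 44 tested genes had a median log2 fold change of 0.16, against −0.0099 over all loci. Values of the 2 genotypes did not overlap for 27 of the 44 (61.4%, against 51% of all loci), with Nlk-KO above WT in 24 (25.1% of all loci) and below in 3 (25.9% of all loci). Tested against a change of 1.2-fold instead of 0, 6 stayed higher (13.6%, against 4.88% of all loci) and 0 lower (3.56% of all loci). The 6 were Gcnt1, Man1c1, St3gal4, B4galt5, St6galnac4 and St6galnac6, and St6galnac4 and St6galnac6 share a locus and so give a single measurement. In bulk RNA, a smaller number of cells of 1 kind and less RNA in each cell cannot be told apart.

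**Figure D1:**
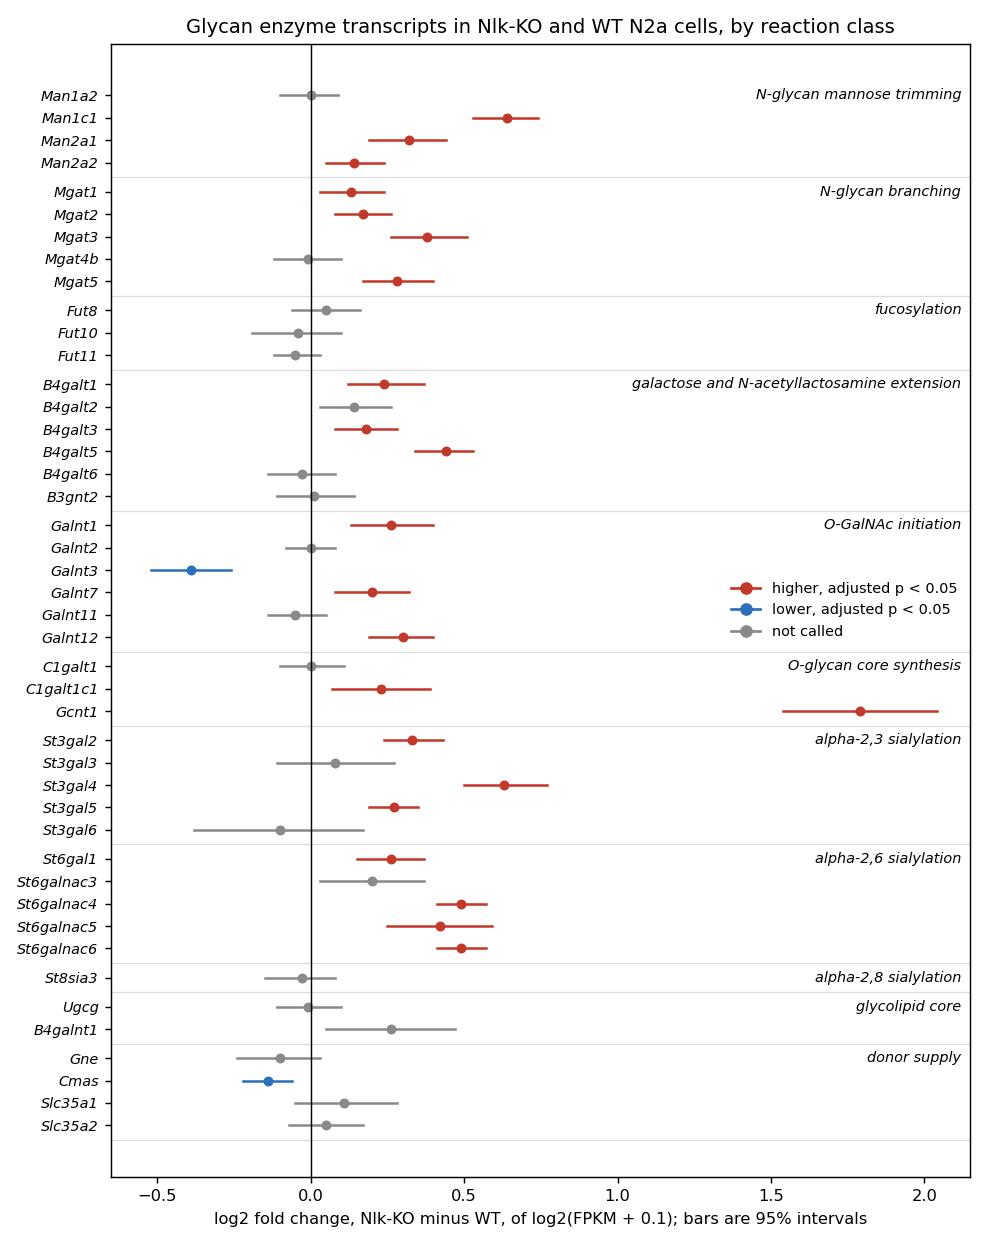
Log2 fold change (Nlk-KO minus WT, of log2(FPKM + 0.1)) of each of the 44 tested enzymes with its 95% interval, grouped by reaction class. The 22 enzymes called higher are in red, the 2 called lower, Galnt3 and Cmas, in blue, and Gcnt1 stands apart at 1.79.

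The start-site regions of 5 of these genes are shown because they frame the range of the response. Gcnt1, Man1c1, St3gal4 and B4galt5 are called genes whose locus carries no other gene name. They held their calls under every alternative fit in which they were tested, and Galnt3 had the largest decrease. Each window runs from 250 bases before to 50 bases after a RefSeq start (mouse build GRCm38.p6), and all 5 genes are on the minus strand. Their positions are chr19:17372795-17373094 for Gcnt1, chr4:134704241-134704540 for Man1c1, chr9:35116815-35117114 for St3gal4, chr2:167349129-167349428 for B4galt5 and chr2:66124744-66125043 for Galnt3. Gcnt1 has 3 such windows, and the one at the upstream end of the deposited locus is printed. Capitals mark the GC box GGGCGG, read on either strand, and in Gcnt1 they mark the TATA box letters TATAAA, also read on either strand.
Gcnt1: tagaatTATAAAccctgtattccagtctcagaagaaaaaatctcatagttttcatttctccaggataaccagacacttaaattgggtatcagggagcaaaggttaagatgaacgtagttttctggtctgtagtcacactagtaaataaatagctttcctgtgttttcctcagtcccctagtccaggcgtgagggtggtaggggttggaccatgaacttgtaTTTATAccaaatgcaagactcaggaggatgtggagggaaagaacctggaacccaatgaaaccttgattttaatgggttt
Man1c1: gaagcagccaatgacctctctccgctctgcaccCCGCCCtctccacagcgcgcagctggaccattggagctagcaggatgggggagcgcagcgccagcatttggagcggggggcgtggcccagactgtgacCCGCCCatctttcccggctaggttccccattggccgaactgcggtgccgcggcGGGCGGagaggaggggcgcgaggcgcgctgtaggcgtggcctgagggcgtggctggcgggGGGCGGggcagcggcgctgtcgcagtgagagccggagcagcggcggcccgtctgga
St3gal4: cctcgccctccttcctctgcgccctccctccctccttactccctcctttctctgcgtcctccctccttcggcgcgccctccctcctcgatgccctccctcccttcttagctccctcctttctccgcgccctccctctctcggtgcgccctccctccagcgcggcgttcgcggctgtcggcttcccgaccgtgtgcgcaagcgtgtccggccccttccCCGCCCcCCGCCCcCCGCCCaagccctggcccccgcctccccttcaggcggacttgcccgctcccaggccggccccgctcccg
B4galt5: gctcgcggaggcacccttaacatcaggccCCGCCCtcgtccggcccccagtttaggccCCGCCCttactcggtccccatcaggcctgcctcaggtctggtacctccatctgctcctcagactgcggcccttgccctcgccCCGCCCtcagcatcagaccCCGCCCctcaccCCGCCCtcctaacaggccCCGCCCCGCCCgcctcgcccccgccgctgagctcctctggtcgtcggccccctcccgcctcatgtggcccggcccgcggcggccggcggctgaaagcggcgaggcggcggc
Galnt3: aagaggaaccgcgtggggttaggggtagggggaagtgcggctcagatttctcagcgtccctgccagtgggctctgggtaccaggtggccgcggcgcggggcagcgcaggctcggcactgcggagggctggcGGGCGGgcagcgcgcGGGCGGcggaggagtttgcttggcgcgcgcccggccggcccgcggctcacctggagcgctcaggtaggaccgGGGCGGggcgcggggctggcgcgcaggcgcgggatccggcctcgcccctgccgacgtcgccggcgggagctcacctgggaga

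The Gcnt1 window held 0 GC boxes and 2 TATAAA matches, which begin at −244 and −29 from the start, and its GC content was 40.7%. As printed, the match at −29 reads TTTATA, so its TATAAA is on the other strand. The other 4 windows were GC-rich, with 4 GC boxes and 72.3% GC in Man1c1, 3 and 74% in St3gal4, 7 and 75% in B4galt5, and 3 and 76.7% in Galnt3. Galnt3, whose level was lower, thus shared this composition with genes whose level was higher. RefSeq windows were matched for 41 of the 60 genes, 56 windows in all, out of 32851 in the table. A GC box was in 67.9% of the 56 windows and in 35.7% of all windows. By gene, 13 of 15 called higher and 12 of 13 not called had one, against 38.2% of all genes. TCACGTGA, the core of the CLEAR element, the site through which Tfeb acts on lysosomal genes, was in 0 of the 56 windows and 0.974% of all windows. The E-box CACGTG, which lies inside each such match, was in 1 (1.79%, against 7.15%), and ATCAAAG, a site of the TCF/LEF factors that Nlk phosphorylates, was in 1 (1.79%, against 3.73%). TATAAA was in 2 (3.57%, against 13.6%). Both strands were searched, and a match is a description of these letters, not of a working site. With TCACGTGA in so small a share of all windows, 0 of 56 says little about these genes.

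Mannose trimming opens the route to complex N-glycans, and 3 of the 4 enzymes tested in this class were higher, against 18.6% of all loci. Man1c1, a class I mannosidase of the Golgi, had 17.9, 17.3 and 16.3 FPKM in WT and 27.3, 25.9 and 26.9 FPKM in Nlk-KO libraries. Its lowest Nlk-KO value lay well above its highest WT value. The log2 fold change was 0.64 (SE 0.044, adjusted p = 5.39e-05), or 55.4% more. Man1a2, a Golgi enzyme of the same family, had 15.2, 15.5 and 15.8 FPKM in WT and 16.0, 14.7 and 15.7 FPKM in Nlk-KO libraries, and the genotypes overlapped (log2 fold change −0.00, 95% interval −0.10 to 0.09, adjusted p = 0.98). Man1a was at 0 in WT libraries and at 0.00795 FPKM or less in Nlk-KO libraries. Of the summed FPKM of these 3 genes, Man1c1 made up 52.5% ± 1.55 (SD, n = 3) in WT and 63.3% ± 0.333 in Nlk-KO cells. A further class I enzyme, Man1b1, which trims mannose earlier in the pathway and is not among the 60 genes, had 32.6, 34.7 and 35.7 FPKM in WT and 39.3, 38.7 and 42.1 FPKM in Nlk-KO libraries (log2 fold change 0.22, adjusted p = 0.0108), on chromosome 2.

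The α-mannosidases II act after Mgat1 has added its sugar. Man2a1 had 32.4, 32.0 and 34.0 FPKM in WT and 43.8, 38.4 and 40.8 FPKM in Nlk-KO libraries (log2 fold change 0.32, SE 0.052, adjusted p = 0.00319), without overlap. Its relative Man2a2 rose less, from 11.3, 11.0 and 10.9 FPKM to 11.7, 12.5 and 12.4 FPKM (0.14, SE 0.040, adjusted p = 0.0275). That call is thin, since it was lost in 8 of 16 alternative fits, and leaving out WT replicate 1, 2 or 3 or Nlk-KO replicate 2 or 3 ended it.

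Of the branching enzymes, 4 of 5 tested were higher, against 18.6% of all loci. Mgat1 makes the first branch and so starts hybrid and complex N-glycans. It had 10.3, 10.2 and 9.53 FPKM in WT and 10.9, 11.2 and 11.0 FPKM in Nlk-KO libraries (log2 fold change 0.13, SE 0.043, adjusted p = 0.044). The call for Mgat1 is at the threshold and was lost when any of the 6 libraries was left out, with adjusted p between 0.0709 and 0.109. Mgat2, which adds the second branch, had 22.9, 23.2 and 23.0 FPKM in WT and 26.6, 24.7 and 26.6 FPKM in Nlk-KO libraries (0.17, SE 0.038, adjusted p = 0.0111). Its locus is crossed on the other strand by the abundant Rpl36al, which did not pass the test (log2 fold change 0.06, adjusted p = 0.388).

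Mgat3 and Mgat5 had the larger increases among the branching genes. Mgat3 adds the bisecting GlcNAc, which hinders further branching. It had 6.77, 6.10 and 6.73 FPKM in WT and 8.67, 8.72 and 8.25 FPKM in Nlk-KO libraries (log2 fold change 0.38, SE 0.054, adjusted p = 0.00159). Mgat5, which makes the β1,6 branch that carries long lactosamine chains, had 9.76, 9.61 and 10.1 FPKM in WT and 12.7, 11.5 and 11.7 FPKM in Nlk-KO libraries (0.28, SE 0.049, adjusted p = 0.00415). Neither gene overlapped between genotypes. Mgat4b, the most abundant gene of this class, had 28.3, 29.3 and 26.0 FPKM in WT and 27.2, 28.0 and 27.6 FPKM in Nlk-KO libraries, which overlapped (−0.01, 95% interval −0.12 to 0.10, adjusted p = 0.863). Its paralog Mgat4a was below the filter, at 0.372, 0.367 and 0.323 FPKM in WT and 0.459, 0.496 and 0.392 FPKM in Nlk-KO libraries.

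None of the 3 fucosyltransferases tested passed the threshold, which 37.1% of all loci did, and 3 genes are few to set beside that share. Fut8, which adds the core fucose of N-glycans, had 15.9, 15.4 and 16.6 FPKM in WT and 16.5, 15.8 and 17.3 FPKM in Nlk-KO libraries (log2 fold change 0.05, 95% interval −0.06 to 0.16, adjusted p = 0.467). Fut10 had a log2 fold change of −0.04 (adjusted p = 0.619). The locus of Fut11, which is merged with Sec24c, had 39.5, 40.4 and 38.6 FPKM in WT and 38.7, 38.1 and 37.9 FPKM in Nlk-KO libraries (−0.05, 95% interval −0.12 to 0.03, adjusted p = 0.288), so its value cannot be given to either gene. The interval for Fut8 covered the fitted log2 fold changes of Mgat1 (0.13) and Man2a2 (0.14), and its upper bound was just under that of Mgat2 (0.17). It lay further below those of Mgat3, Mgat5, Man2a1 and Man1c1. Differences between these genes were not tested. Fut4 and Fut9, which make Lewis-type antennae, were below the filter, Fut4 at 0.00757 FPKM or less and Fut9 at 0.0531 FPKM or less in each library.

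The galactosyltransferases were split. B4galt1, which galactosylates the branches of N-glycans, had 5.49, 5.75 and 5.45 FPKM in WT and 6.72, 6.21 and 6.91 FPKM in Nlk-KO libraries (log2 fold change 0.24, SE 0.055, adjusted p = 0.0116). B4galt3 had 22.9, 25.1 and 25.0 FPKM in WT and 28.1, 26.9 and 27.7 FPKM in Nlk-KO libraries (0.18, SE 0.044, adjusted p = 0.0161), but its call was lost without Nlk-KO replicate 1 (adjusted p = 0.0583) or 3 (adjusted p = 0.0535). Both genes were above WT in each Nlk-KO library. B4galt2, whose locus also holds Ccdc24, had 8.77, 9.65 and 8.86 FPKM in WT and 9.93, 10.3 and 9.92 FPKM in Nlk-KO libraries, without overlap, and just missed the threshold (0.14, adjusted p = 0.0535).

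B4galt5 and B4galt6 both make lactosylceramide, the base of most gangliosides, and their values differed. B4galt5 (GRCm38 chr2:167298444-167349183) had 13.9, 15.0 and 13.9 FPKM in WT and 19.8, 19.1 and 19.2 FPKM in Nlk-KO libraries. The genotypes were far apart, with a log2 fold change of 0.44 (SE 0.041, adjusted p = 0.000241), or 35.3% more. B4galt6 had 19.4, 19.3 and 19.9 FPKM in WT and 19.9, 17.9 and 19.6 FPKM in Nlk-KO libraries, which overlapped (−0.03, 95% interval −0.14 to 0.08, adjusted p = 0.639). B4galt5 thus went from 42.2% ± 1.36 of their summed FPKM in WT to 50.3% ± 1.12 in Nlk-KO cells (SD, n = 3). B4galt5 lies on chromosome 2, whose tested loci had a median log2 fold change of 0.19. With the median of each chromosome removed, B4galt5 was at 0.25 and kept its call (adjusted p = 0.0041). B3gnt2, which lengthens lactosamine chains, was at 0.01 (adjusted p = 0.863), and B4galt4, B3gnt5 and Gcnt2, which branches such chains, were each at 0.0137 FPKM or less in every library.

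The GalNAc transferases that begin mucin-type O-glycans moved in both directions, with 3 higher and 1 lower among 6 tested. Over all loci, 18.6% were higher and 18.5% lower. Galnt1, an abundant and widely expressed member of the family, had 46.6, 44.1 and 48.3 FPKM in WT and 57.8, 51.6 and 57.7 FPKM in Nlk-KO libraries (log2 fold change 0.26, SE 0.056, adjusted p = 0.00927). Galnt12 had 4.81 to 5.01 FPKM in the 3 WT and 5.94, 6.15 and 6.16 FPKM in Nlk-KO libraries (0.30, SE 0.045, adjusted p = 0.00219). Galnt7, which prefers peptides that already carry GalNAc, had 20.7, 20.2 and 21.0 FPKM in WT and 24.0, 22.1 and 25.2 FPKM in Nlk-KO libraries (0.20, SE 0.051, adjusted p = 0.0196). The genotypes did not overlap for any of the 3, but the call for Galnt7 was lost without WT replicate 1 or 2 or Nlk-KO replicate 1 or 3 (adjusted p between 0.0584 and 0.065).

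Galnt3 went the other way. Galnt3, known for protecting the hormone Fgf23 from cleavage, had 7.73, 7.27 and 7.44 FPKM in WT and 6.03, 5.39 and 5.61 FPKM in Nlk-KO libraries, with each Nlk-KO value below each WT value. Its log2 fold change was −0.39 (SE 0.055, 95% interval −0.52 to −0.26, adjusted p = 0.00149), or −23.8%. Galnt3 (chr2:66082766-66124994) lies on the same chromosome as B4galt5, and with the chromosome median removed its log2 fold change was −0.58 (adjusted p = 0.000267). Galnt2, the most abundant gene of the class, had 59.1, 59.6 and 57.1 FPKM in WT and 57.8, 57.5 and 60.4 FPKM in Nlk-KO libraries, which overlapped (−0.00, 95% interval −0.08 to 0.08, adjusted p = 0.986), and Galnt11 was at −0.05 (adjusted p = 0.422). As shares of the class's summed FPKM, Galnt1 went from 29.3% ± 0.989 to 32.8% ± 0.925, Galnt2 from 37.0% ± 1.22 to 34.6% ± 0.884 and Galnt3 from 4.73% ± 0.126 to 3.35% ± 0.159 (SD, n = 3). Galnt4 was below the filter, with 0.0811 to 0.131 FPKM in WT and 0.179 to 0.215 FPKM in Nlk-KO libraries, and Poc1b, whose locus surrounds it, fell (−0.23, adjusted p = 0.0125). Galnt10 and Galnt14 were at 0.0211 FPKM or less in each library.

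Gcnt1 had the largest change of the 44 tested enzymes. It makes the core 2 branch of O-glycans, on which lactosamine chains and sialyl Lewis structures are built. Gcnt1 (GRCm38 chr19:17326141-17372844) had 0.903, 0.739 and 0.751 FPKM in WT and 3.13, 2.76 and 3.09 FPKM in Nlk-KO libraries. It was thus a low transcript in WT cells, and the 2 genotypes were separated by more than the whole WT level. The log2 fold change was 1.79 (SE 0.106, 95% interval 1.54 to 2.04, adjusted p = 2.73e-05), a fitted 3.45-fold. The size depends on the pseudocount, from 1.15 with a pseudocount of 1 to 1.90 with 0.01, while the call held in each of the 15 alternative fits that included it.

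Of the pair of genes that make the core 1 structure beneath it, only the chaperone passed the test. C1galt1, the core 1 synthase, had 14.2, 14.5 and 15.4 FPKM in WT and 15.0, 14.2 and 15.0 FPKM in Nlk-KO libraries, which overlapped (log2 fold change 0.00, 95% interval −0.10 to 0.11, adjusted p = 0.982). Its chaperone C1galt1c1 (Cosmc), without which the synthase is not active, had 5.11, 5.34 and 5.43 FPKM in WT and 5.68, 6.35 and 6.68 FPKM in Nlk-KO libraries (0.23, SE 0.067, adjusted p = 0.0322). The call for C1galt1c1 was lost in 8 of 16 alternatives, among them leaving out Nlk-KO replicate 2 or 3 or any WT library. Gcnt1 went from 3.85% ± 0.541 to 12.5% ± 0.643 of the summed FPKM of these 3 genes (SD, n = 3).

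**Figure D2:**
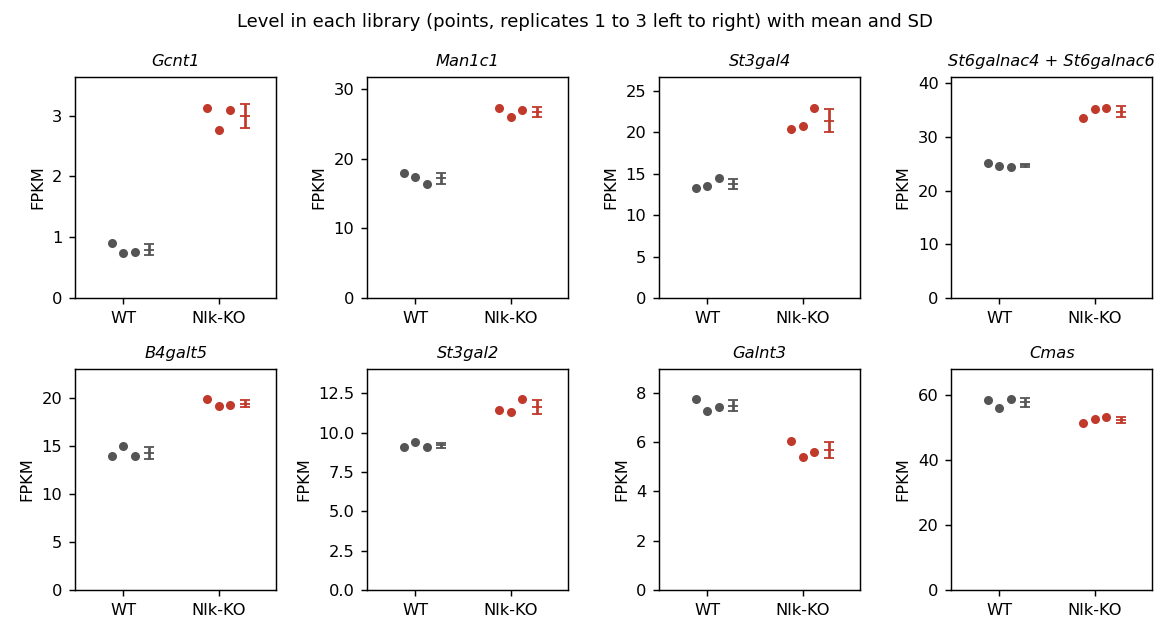
FPKM of 8 enzymes in each library, with points for WT (grey) and Nlk-KO (red) replicates and bars for the mean and SD of 3 libraries. The genotypes do not overlap in any panel, Gcnt1 moves from a mean of 0.798 to 2.99 FPKM, and Galnt3 and Cmas are the 2 panels in which Nlk-KO lies below WT.

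Sialyltransferases cap these chains, and 7 of the 11 tested were higher and 0 lower (63.6%, against the 18.6% of all loci called higher), with a median log2 fold change of 0.27. St6galnac4 and St6galnac6, both among the 7, share a locus and so give a single measurement. The sialyltransferases that add α2,3-linked sialic acid came first in abundance. St3gal4, which caps lactosamine on N-glycans and O-glycans, had 13.3, 13.5 and 14.5 FPKM in WT and 20.4, 20.8 and 23.0 FPKM in Nlk-KO libraries. The lowest Nlk-KO value exceeded the highest WT value, with a log2 fold change of 0.63 (SE 0.057, adjusted p = 0.000193), or 54.9% more. The gene spans chr9:35046576-35119268, but its deposited locus has the same wider bounds as that of Dcps on the same strand (chr9:35046572-35175987). Dcps, with a log2 fold change of 0.06 (adjusted p = 0.49), did not pass the test.

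St3gal2, which acts on core 1 O-glycans and on gangliosides, had 9.11, 9.39 and 9.08 FPKM in WT and 11.4, 11.3 and 12.1 FPKM in Nlk-KO libraries (log2 fold change 0.33, SE 0.041, adjusted p = 0.000832). St3gal5, which makes the ganglioside GM3 from lactosylceramide, had 19.8, 18.9 and 19.8 FPKM in WT and 23.2, 23.6 and 23.8 FPKM in Nlk-KO libraries (0.27, SE 0.033, adjusted p = 0.000892). Both were without overlap, and Ddx19a, which lies on the other strand within the bounds of the St3gal2 locus, was at 0.00 (adjusted p = 0.997). St3gal3, also a lactosamine enzyme, had 7.10, 8.26 and 6.54 FPKM in WT and 7.84, 7.55 and 7.68 FPKM in Nlk-KO libraries. Its WT values spread across all 3 Nlk-KO values (0.08, 95% interval −0.11 to 0.27, adjusted p = 0.475). St3gal6 was at −0.10 (adjusted p = 0.52), and St3gal1, the main core 1 enzyme in many tissues, was below the filter at 0.0639 FPKM or less. As a share of the class's FPKM, St3gal4 went from 27.0% ± 1.18 to 32.7% ± 1.13 (SD, n = 3).

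Among the enzymes that add α2,6-linked sialic acid, 4 of 5 tested were higher, against 18.6% of all loci. The locus shared by St6galnac4 and St6galnac6, neighbours on the plus strand of chromosome 2, had 25.1, 24.7 and 24.5 FPKM in WT and 33.5, 35.3 and 35.5 FPKM in Nlk-KO libraries. Its values were tight within each genotype and far apart between them (log2 fold change 0.49, SE 0.034, adjusted p = 6.19e-05). Both genes act on O-glycans or gangliosides, and the file does not show which of them carried the difference, so they are 2 of the 22 calls but 1 measurement. With the median of chromosome 2 removed the locus was at 0.30 (adjusted p = 0.000707).

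St6gal1, the enzyme that places α2,6-linked sialic acid on N-glycans, had 9.37, 9.15 and 8.54 FPKM in WT and 11.0, 10.5 and 11.0 FPKM in Nlk-KO libraries (log2 fold change 0.26, SE 0.047, adjusted p = 0.00471). St6galnac5, which makes α-series gangliosides in brain, had 2.81, 2.76 and 2.48 FPKM in WT and 3.44, 3.79 and 3.64 FPKM in Nlk-KO libraries (0.42, SE 0.073, adjusted p = 0.00387). Neither overlapped between genotypes. St6galnac3 had 4.33, 4.82 and 4.43 FPKM in WT and 5.58, 4.79 and 5.25 FPKM in Nlk-KO libraries, with Nlk-KO replicate 2 inside the WT range (0.20, adjusted p = 0.0706). St6galnac2 was below the filter, at 0.475, 0.506 and 0.645 FPKM in WT and 0.350, 0.476 and 0.437 FPKM in Nlk-KO libraries.

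Enzymes that chain sialic acids to one another were nearly silent apart from St8sia3. St8sia3, which adds α2,8-linked sialic acid in brain, had 15.2, 15.5 and 14.7 FPKM in WT and 15.5, 13.9 and 15.0 FPKM in Nlk-KO libraries, which overlapped (log2 fold change −0.03, 95% interval −0.15 to 0.08, adjusted p = 0.616). St8sia2 and St8sia4, the polysialyltransferases, were at 0.00478 and 0.0243 FPKM or less in each library, St8sia1, which makes the ganglioside GD3, at 0.0301 FPKM or less, and St8sia5 at 0.0162 FPKM or less. The main carrier of polysialic acid, Ncam1, was abundant and lower in Nlk-KO cells, with 70.7, 72.7 and 71.6 FPKM in WT and 54.1, 50.3 and 52.7 FPKM in Nlk-KO libraries (−0.45, SE 0.036, adjusted p = 0.000107). This is the highest of 6 loci that carry the symbol Ncam1, and the others had means of 0.705 FPKM or less. Of the other proteins known to carry polysialic acid, Cadm1 had 64.4, 66.1 and 68.5 FPKM in WT and 85.6, 77.6 and 83.6 FPKM in Nlk-KO libraries (0.31, SE 0.046, adjusted p = 0.002). Nrp2 had 24.8, 24.7 and 24.9 FPKM in WT and 27.3, 23.3 and 24.3 FPKM in Nlk-KO libraries (0.01, adjusted p = 0.956). The 3 carriers thus had different directions, and the genes for the chain itself were at or near 0 in both genotypes.

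The glycolipid enzymes that act before and after lactosylceramide did not pass the threshold, which 37.1% of all loci did. Ugcg, which makes glucosylceramide, had 20.7, 21.2 and 19.8 FPKM in WT and 20.8, 19.5 and 21.3 FPKM in Nlk-KO libraries (log2 fold change −0.01, 95% interval −0.11 to 0.10, adjusted p = 0.935). B4galnt1, which turns simple gangliosides into complex ones, had 5.47, 5.88 and 4.58 FPKM in WT and 6.30, 6.46 and 6.28 FPKM in Nlk-KO libraries. Its genotypes did not overlap, but WT varied widely and the adjusted p was 0.054 (0.26, 95% interval 0.05 to 0.47). B4galnt1 lies on chromosome 10, whose tested loci had a median of −0.20, and with that median removed it passed the threshold (0.46, adjusted p = 0.00682).

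None of the 4 genes that make sialic acid or carry activated sugars into the Golgi was called higher, and 1 was lower. Over all loci, 18.6% were higher and 18.5% lower, and 4 genes are few to set beside those shares. Cmas, which activates sialic acid to CMP-sialic acid in the nucleus, fell from 58.4, 56.1 and 58.6 FPKM to 51.4, 52.5 and 53.3 FPKM (log2 fold change −0.14, SE 0.032, adjusted p = 0.0139). The genotypes did not overlap, yet the call was lost without WT replicate 1 (adjusted p = 0.0594) or Nlk-KO replicate 1 (adjusted p = 0.051). Gne, the enzyme that starts sialic acid synthesis, had 4.44, 4.08 and 4.14 FPKM in WT and 3.93, 4.02 and 3.79 FPKM in Nlk-KO libraries, also without overlap (−0.10, adjusted p = 0.19). The CMP-sialic acid transporter Slc35a1 had 11.2, 11.3 and 11.0 FPKM in WT and 13.1, 10.8 and 12.6 FPKM in Nlk-KO libraries, where replicate 2 lay below WT (0.11, 95% interval −0.05 to 0.28, adjusted p = 0.249). The UDP-galactose transporter Slc35a2 was at 0.05 (adjusted p = 0.509).

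Summed over each reaction class, the transcript level in Nlk-KO cells was highest relative to WT for the enzymes that add α2,6-linked and α2,3-linked sialic acid. The α2,6 class had 41.5 ± 0.820 FPKM in WT and 54.8 ± 0.981 FPKM in Nlk-KO cells (SD, n = 3), 32% more, and the α2,3 class had 51.0 ± 0.398 and 65.4 ± 2.05 FPKM, 28.1% more. The place of the α2,6 class rests on the merged locus of St6galnac4 and St6galnac6 on chromosome 2, without which it had 16.8 ± 0.605 and 20.1 ± 0.422 FPKM, 19.6% more and below mannose trimming. Mannose trimming had 76.5 ± 0.627 and 95.4 ± 3.66 FPKM (24.7% more). The gain was smaller for O-glycan core synthesis (15.1%), galactose and lactosamine extension (12%), branching (10.2%) and O-GalNAc initiation (7.1%). In each of these 7 classes the 3 Nlk-KO sums lay above the 3 WT sums. Donor supply went the other way, with 82.1 ± 1.24 and 77.8 ± 1.12 FPKM and no overlap, and the sums of the fucosylation, α2,8 and glycolipid classes overlapped. The sums are dominated by their most abundant genes and carry no test. Together the 59 loci summed to 691 ± 0.721 FPKM in WT and 766 ± 17.6 FPKM in Nlk-KO cells.

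**Figure D3:**
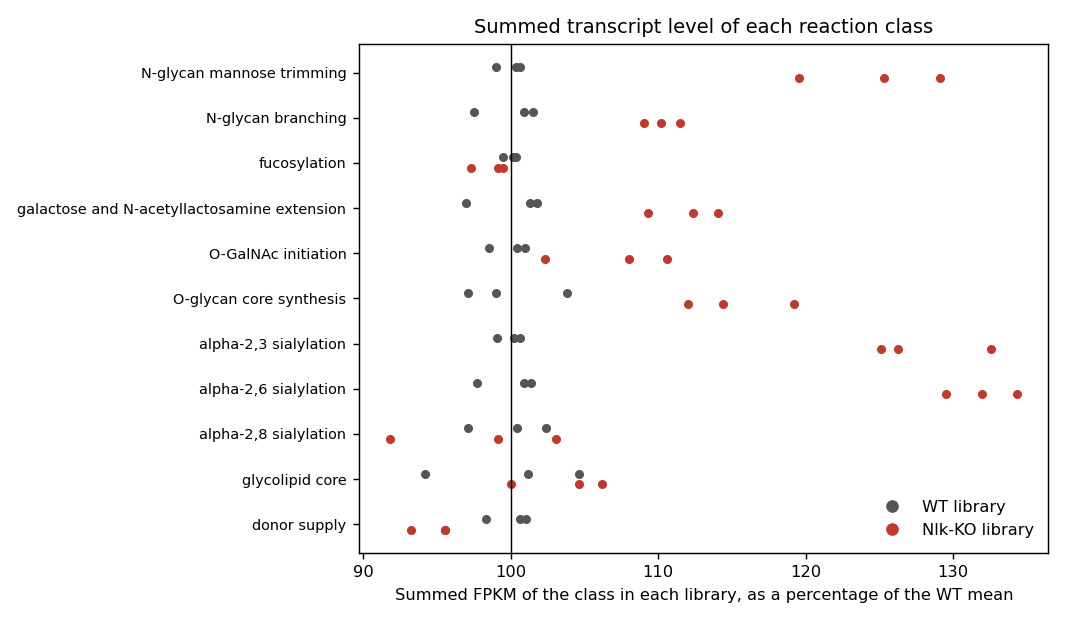
Summed FPKM of each reaction class in each library, as a percentage of the WT mean of that class, with grey points for WT and red points for Nlk-KO libraries. The 2 classes that add α2,3-linked and α2,6-linked sialic acid lie farthest right in Nlk-KO (28.1% and 32% above the WT mean), and donor supply lies left of WT.

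**Figure D4:**
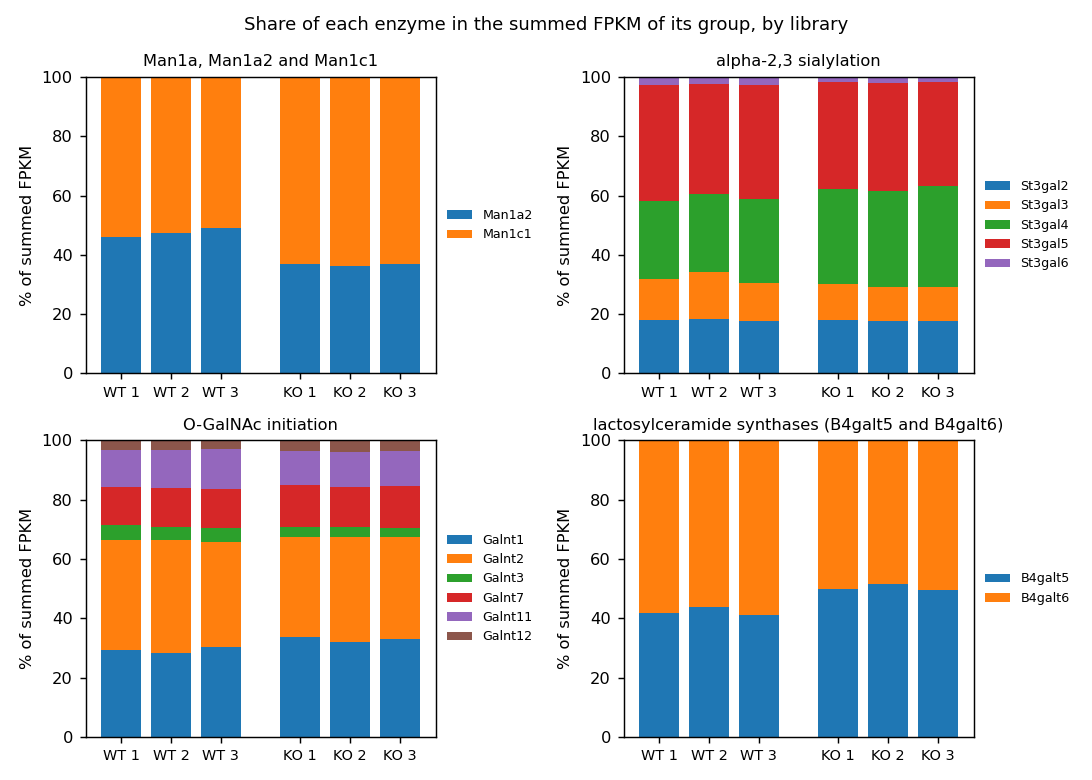
Share of each enzyme in the summed FPKM of its group, as stacked bars for each WT and Nlk-KO library in 4 groups. The part of Man1c1 in the sum with Man1a and Man1a2 grows from a mean of 52.5% to 63.3%, and that of B4galt5 against B4galt6 from 42.2% to 50.3%, in all 3 Nlk-KO libraries.

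Other parts of the pathway were read from the same fit, by lists that do not include the 60 genes. Of 50 other Golgi glycosyltransferases and sulfotransferases, 18 were tested, 6 were higher and 2 lower, with a median log2 fold change of 0.10. Mgat5b, the brain relative of Mgat5 that branches O-mannosyl glycans, had the largest change, from 0.274, 0.259 and 0.207 FPKM in WT to 0.850, 0.864 and 1.01 FPKM in Nlk-KO libraries (1.54, SE 0.174, adjusted p = 0.000569). With a mean of 0.247 FPKM in WT and 0.908 FPKM in Nlk-KO libraries, it passed the filter of 0.5 FPKM only through Nlk-KO. Its place among the 6 higher genes therefore rests on that group. B3galt1, a galactosyltransferase on chromosome 2, had 7.41, 7.12 and 7.62 FPKM in WT and 11.5, 10.7 and 11.7 FPKM in Nlk-KO libraries (0.61, SE 0.048, adjusted p = 0.000106). Neither overlapped between genotypes. Gal3st3, a sulfotransferase that acts on galactose, was at 0.55 (adjusted p = 0.0128), and Lfng, which elongates O-fucose on Notch receptors, at 0.49 (adjusted p = 0.00119).

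The endoplasmic reticulum genes that assemble and transfer the N-glycan precursor were all tested, and 12 of 35 were higher and 7 lower, with a median of 0.03. Dolk, which makes dolichol phosphate, rose from 4.45, 4.49 and 4.34 FPKM to 6.27, 5.72 and 5.86 FPKM (0.42, adjusted p = 0.000902), and Dolpp1, which recycles dolichol, had 0.30 (adjusted p = 0.00047). Both lie on chromosome 2, where the median was 0.19, and so do Dpm1, Dpm2, Rpn2 and Man1b1 among the 12 higher genes. The rest of the 12 lie on other chromosomes. Dpagt1, whose locus is merged with the histone gene H2afx, was at 0.42 (adjusted p = 0.000168), and Alg14, a partner in the next step of precursor assembly, at −0.29 (adjusted p = 0.00193). Sugar nucleotide enzymes, transporters and sialidases showed 3 higher and 3 lower of 29 tested (median 0.03), with Uap1l1 at 0.54, Slc35c1, the GDP-fucose transporter, at 0.28, Gmppa, a regulator of GDP-mannose synthesis, at −0.35 and Gmds, the first enzyme of GDP-fucose synthesis, at −0.28. Uap1l1 and Slc35c1 also lie on chromosome 2. Golgi upkeep genes, the tethers and Cog subunits that keep glycosylation enzymes in place, had 2 higher and 3 lower of 17 tested (median −0.06). Cog6, Cog1 and Cog7 were the 3 lower, at −0.33, −0.30 and −0.25, and the 2 higher genes, the matrix proteins Golga2 at 0.26 and Gorasp2 at 0.15, both lie on chromosome 2. Against the 50% of Golgi glycan enzymes called higher, these lists had 33.3%, 34.3%, 10.3% and 11.8% of their tested genes called higher, in the order given, with 18.6% over all loci between them. They had 11.1%, 20%, 10.3% and 17.6% called lower, against 18.5% over all loci. The differences between the lists were not tested.

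The enzymes were about as abundant as other loci. The 44 tested genes had a median level of 13.2 FPKM, against 12.0 FPKM for all loci tested. With a minimum mean of 2 FPKM, 22 of 42 were higher (52.4%, against 19.6% of loci) and 2 lower (against 19% of loci). On chromosome 2, 3 of 4 tested genes were higher, St6galnac4 and St6galnac6 with their shared locus among them, and outside it 19 of 40 were. Setting aside the 4 genes that share a locus with another gene name, 20 of 40 were higher and 2 lower.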

How the data were processed

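RNA-Seq libraries of 3 WT and 3 Nlk-KO N2a cultures were made by the authors from column-purified, poly(A)-selected RNA. According to the submitters' processing notes, reads were aligned to GRCm38 (mm10) with TopHat2 (2.1.0) and quantified with Cufflinks (2.2.1), and the authors deposited FPKM for each locus and library after scaling with Cuffnorm. Deposited group means, fold changes, p-values and adjusted p-values hold the authors' own comparison (Cuffdiff) and were not used. The reads are not used here, so a linear model took the place of Cuffdiff. FPKM keep no read totals, so no counting interval is given. Of the table, 1 line without values was left out, and the number of library columns that could not be mapped was 0.

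A pseudocount of 0.1 was added to the FPKM before taking log2. Loci averaging 0.5 FPKM or more, 12667 in number, entered a fit in limma (version 3.58.1 under R 4.3.3) that used a trended prior variance, with Benjamini-Hochberg adjustment over all of them and a threshold of 0.05. The fit was tested on simulated data. For a repeated symbol (St3gal6, and Ncam1 outside the list), the locus with the highest mean was kept. Genes with a value in every library are those called, and in each class the uncalled gene with the highest mean. Of each other list, up to 4 called genes with the largest change are named, and all polysialic acid carriers. Library values of B4galt2, B4galnt1, Fut8, Gne, Galnt4, Mgat4a and St6galnac2 are given as well. Man1b1, Gorasp2, Dpm1, Dpm2 and Rpn2 are also named. All of these were chosen after they were seen. The members and lists were chosen with earlier results of these data known. Gene positions are those of GENCODE M21 and start-site windows those of RefSeq, both on GRCm38. Whether libraries of the same replicate number deviate together was checked, and they do not (r = 0.037, 0.060 and −0.132). Alternatives changed the pseudocount, the filter, the scaling, the prior, the fold required, the chromosome medians, the block and the libraries. A permutation test of 3 against 3 libraries cannot go below 0.1, so none is given.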

Additional observations from a re-analysis of the deposited data

How the results depend on the processing

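Of the 24 called glycan enzymes, 0 changed sign in 16 alternatives (15 for Gcnt1, which a minimum mean of 2 FPKM leaves out), and 6 kept their call in each one. St6galnac4 and St6galnac6, which share a locus, are among the 6. Requiring more than 1.2-fold left 618 loci higher and 451 lower, with 6 glycan enzymes higher and 0 lower. Leaving out 1 library gave 17 (without Nlk-KO replicate 3) to 21 glycan enzymes higher and 1 to 2 lower. The 1 is Galnt3, without WT replicate 1 or without Nlk-KO replicate 1, where Cmas lost its call. With the replicate number as a block, 21 were higher and 2 lower, and 2065 loci higher and 1973 lower in all. The numbers do not pair these libraries.

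Signs turned only for enzymes that were not called. With median-ratio scaling, Man1a2 was at 4.2e-03 and Galnt2 at 4.8e-03. With chromosome medians removed, Man1a2 was at 0.09, Mgat4b at 0.05, B4galt6 at 0.05, Galnt2 at 0.02, Galnt11 at 0.06, C1galt1 at −0.01 and St8sia3 at 0.04. Leaving out 1 library gave ranges of −0.02 to 0.03 for Man1a2, −0.06 to 0.02 for Mgat4b, −0.06 to 0.02 for B4galt6, −0.02 to 0.07 for B3gnt2, −0.02 to 0.01 for Galnt2, −0.02 to 0.04 for C1galt1, −0.07 to 0.01 for St8sia3, −0.03 to 0.03 for Ugcg and −7.2e-04 to 0.08 for Slc35a2. B4galnt1, B4galt2, Slc35a1 and St6galnac3 passed the threshold in at least 1 alternative. Shared loci and unknown read totals limit what can be said of low or merged genes.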
